A study of Rattus norvegicus with 18 samples.

Results

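The genes described here are 40 genes of mitosis, chosen by name for their known roles at the kinetochore, in the chromosomal passenger complex, as mitotic kinases and cyclins, in anaphase and mitotic entry by ubiquitin, in chromosome condensation, on the spindle and in cytokinesis. They were chosen with earlier results of these data known, so the shares of called genes below describe the list and are no independent test of it. The mitotic kinesins were kept as a list of their own, except *Cenpe*, which is itself a kinesin family motor but works at the kinetochore and was counted with the kinetochore genes. Of the 40 genes, 39 were among the 32882 genes of each of the 3 tables of normalized counts, and *Ccnb2* had no entry under that name. Most of those that could be tested had lower values in *Ets1*-KO than in control cells, in the parenchyma and in the spleen, and higher values in *Grk2*-KO than in control cells.

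Before a cell divides, its chromosomes are condensed, attached through their kinetochores to the microtubules of the spindle, and held until every chromosome is attached. The cyclin-dependent kinase *Cdk1* with its cyclins starts this programme, the Aurora and Polo kinases carry it forward, and the anaphase-promoting complex ends it by marking cyclin B and securin for destruction. Most of these genes are transcribed mainly late in the cell cycle, in G2 phase and mitosis, so that their RNA in a bulk sample is commonly read as a mark of cycling cells. CD4+ T cells that have been activated by their antigen divide rapidly.

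The cells were CD4+ T-MBP cells, Lewis rat T cells reactive to myelin basic protein, which induce an experimental autoimmune encephalomyelitis when they are transferred into Lewis rats. Per the study's methods, the cells were edited in culture with CRISPR-Cas9 ribonucleoproteins carrying a single guide RNA against *Ets1*, a transcription factor of T cells, or *Grk2*, a kinase that switches off G protein-coupled receptors, or a non-targeting guide (control, NT in the sample titles). KO and control cells were transferred together, and were sorted on day 3 after transfer from the spleen or the spinal cord parenchyma. The 6 groups of 3 libraries were *Ets1*-KO and control cells of the parenchyma, the same pair of genotypes from the spleen, and *Grk2*-KO cells of the spleen with controls of their own, 18 libraries in all. KO cells carried EGFP and control cells BFP, so that the edit and the fluorescent protein cannot be told apart, and the edited cells were a mixed population and no clone. The rats of the study were male and female and between 5 and 20 weeks old. In such bulk samples, fewer cells in mitosis and less mitotic RNA per cell cannot be told apart.

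The libraries held between 898092 and 2248258 reads on genes, and between 9635 and 10967 genes had a read. *Ets1* RNA itself was read at 2326, 2573 and 2302 normalized counts in the controls of the parenchyma and at 2682, 2628 and 2342 in *Ets1*-KO cells (log2 fold change 0.09, SE 0.07, limma adjusted p = 0.56), and its log2 fold change in the spleen was −0.06 (SE 0.11, adjusted p = 0.854). A guide-directed edit can leave the RNA level as it was, so these values do not check the labels. *Grk2* RNA fell from 166, 166 and 142 to 53.3, 64.2 and 87.3 (log2 fold change −1.22, SE 0.13, adjusted p = 1.76e-12), and all 3 KO libraries were below all 3 controls. Summed normalized counts of 8 T cell marker genes lay between 3214 and 4365 in every library, and the CD8 T cell markers summed to at most 10.1. The 12 myeloid markers summed to between 29.2 and 67.7 in the parenchyma and to at most 11.6 in the spleen, and the 8 B cell markers to at most 13.1. Neural markers summed to between 48.7 and 94.0 in the parenchyma and between 22.6 and 45.5 in the spleen. Most of this was *Mbp* alone, at 39.7 to 82.8 in the parenchyma and 21.9 to 41.2 in the spleen. Erythroid markers summed to at most 38.7. These were nearly all *Hba-a1*, at 25.2 to 38.7 in the spleen libraries of the *Ets1* comparison and at most 2.07 in the other libraries. *Adgre1*, *Pax5*, *Blk*, *Cd8b*, *Aqp4* and *Alas2* were at 0 in every library.

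The promoters of the 4 genes that were called in all 3 comparisons, *Cenpe*, *Cenpf*, *Nusap1* and *Top2a*, are shown because cell cycle genes of G2 phase and mitosis are known to share short promoter elements. These are the CHR element, written TTTGAA or in a variant form as TTTAAA, and the CCAAT box. The windows run from 250 bases before to 50 bases after the annotated start, are taken from RefSeq (GRCr8, another build than that of the count tables) and are given 5′ to 3′ on the strand of the gene. Capitals mark these strings on either strand. They lie at chr2:226310807-226311106, plus strand (*Cenpe*), at chr13:103760837-103761136, minus strand (*Cenpf*), at chr3:127057045-127057344, plus strand (*Nusap1*), and at chr10:84473044-84473343, minus strand (*Top2a*).
Cenpe: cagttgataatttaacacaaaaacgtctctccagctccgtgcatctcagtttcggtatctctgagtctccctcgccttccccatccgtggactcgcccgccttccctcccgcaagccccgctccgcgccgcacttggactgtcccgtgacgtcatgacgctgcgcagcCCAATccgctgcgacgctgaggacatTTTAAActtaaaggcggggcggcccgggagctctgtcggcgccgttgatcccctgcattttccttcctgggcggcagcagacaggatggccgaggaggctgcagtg
Cenpf: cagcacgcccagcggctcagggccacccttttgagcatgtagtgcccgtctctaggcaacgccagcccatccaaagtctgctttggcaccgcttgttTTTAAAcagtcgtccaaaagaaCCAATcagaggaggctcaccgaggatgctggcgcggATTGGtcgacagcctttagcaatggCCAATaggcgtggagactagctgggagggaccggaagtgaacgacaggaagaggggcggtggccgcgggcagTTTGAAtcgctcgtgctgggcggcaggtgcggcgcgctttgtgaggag
Nusap1: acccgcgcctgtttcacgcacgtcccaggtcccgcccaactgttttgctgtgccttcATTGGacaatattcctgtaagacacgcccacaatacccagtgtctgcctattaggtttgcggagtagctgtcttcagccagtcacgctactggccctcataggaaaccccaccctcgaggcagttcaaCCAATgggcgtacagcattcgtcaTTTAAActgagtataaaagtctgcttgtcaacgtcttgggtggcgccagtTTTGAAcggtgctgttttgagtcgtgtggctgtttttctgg
Top2a: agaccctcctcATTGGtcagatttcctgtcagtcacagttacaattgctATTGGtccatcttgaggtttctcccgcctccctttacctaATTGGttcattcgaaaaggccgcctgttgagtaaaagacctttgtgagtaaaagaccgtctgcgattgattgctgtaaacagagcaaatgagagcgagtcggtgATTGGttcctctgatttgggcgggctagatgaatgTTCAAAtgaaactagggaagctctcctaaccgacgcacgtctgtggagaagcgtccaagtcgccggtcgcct

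Promoter windows were matched for 35 of the 40 genes by symbol, and *Incenp*, *Aurkb*, *Ccna2*, *Ube2c* and *Tpx2* were not matched. TTTGAA was found on either strand in 30 of these 35 windows (85.7%), against 18.4% of 33469 rat promoter windows of the same length. CCAAT was found in 28 of the 35 (80%), against 37.5% of all windows, and both strings together in 25 (71.4%), against 7.41%. The variant TTTAAA was found in 11 of the 35 (31.4%, against 13.6%). CCGGAA, the core letters that factors of the ETS family, *Ets1* among them, are known to bind, was found in 12 of the 35 (34.3%), against 15% of all windows. None of these strings contains another, and a match describes the letters of the window only.

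In control cells the RNA of these genes was far lower in the parenchyma than in the spleen. Summed over the 39 genes, between 1646 and 1987 reads per 1000000 reads on genes (RPM) were counted in the 3 controls of the parenchyma, between 10926 and 12341 in the 3 spleen controls of the *Ets1* comparison and between 5242 and 6928 in the 3 spleen controls of the *Grk2* comparison. The 3 groups did not overlap. The log2 ratio of the sums, parenchyma over spleen, was −2.70 with the spleen controls of the *Ets1* comparison (pooled SD 0.115, 6.48-fold lower) and −1.70 with those of the *Grk2* comparison (pooled SD 0.178, 3.25-fold lower). The 3 tables were normalized separately, so these levels are given in RPM and are described without a test.

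*Top2a*, the topoisomerase that untangles sister chromatids, was at 146, 163 and 102 RPM in the parenchyma, at 1838, 1705 and 1902 in the spleen controls of the *Ets1* comparison and at 986, 824 and 718 in those of the *Grk2* comparison. *Mki67*, which coats mitotic chromosomes and encodes the proliferation antigen Ki-67, was at 150.4, 142 and 118 in the parenchyma, at 1258, 1026 and 1293 in the spleen controls of the *Ets1* comparison and at 517, 402 and 391 in those of the *Grk2* comparison. All spleen controls were above all parenchyma controls for both genes. *Cdc20*, an activator of the anaphase-promoting complex, had among the widest gaps, at 4.68, 7.11 and 2.09 in the parenchyma and 94.8, 108 and 65.7 in the spleen controls of the *Ets1* comparison. At the other end *Tacc3*, which links microtubules of kinetochore fibres, was at 197, 193 and 175 in the parenchyma and at 200.2, 193 and 181 in the spleen controls of the *Grk2* comparison, and these ranges overlapped. *Cep250*, a centrosome linker protein of interphase cells, was at 78.2, 64.0 and 61.2 in the parenchyma, above its level in the spleen controls of the *Grk2* comparison (38.2, 28.2 and 22.8) and below that in the spleen controls of the *Ets1* comparison (95.6, 114 and 110.2).

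Of the 38 genes with a mean of at least 5 RPM over the 9 control libraries, all except *Anln* among the 39, 34 had every parenchyma control below every spleen control of both comparisons. Of 7784 genes with that mean, 14.5% did. The exceptions were *Incenp*, *Ncapd2*, *Tacc3* and *Cep250*. The median gene of the 38 was 9.65-fold higher in the spleen than in the parenchyma with the controls of the *Ets1* comparison and 5.16-fold with those of the *Grk2* comparison, whereas the median of all 7784 genes was 1.07-fold and 1.08-fold. The 2 sets of spleen controls also stood apart, since 29 of the 38 genes were higher in every control of the *Ets1* comparison than in every control of the *Grk2* comparison, with a median of 2.07-fold (all genes 29.4% and 1.01-fold). *Aurkb* and *Cks2* had the opposite order, with *Cks2* at 49.4, 50.0 and 31.2 against 97.5, 90.7 and 63.2 RPM. Each fold between tissues therefore depends on which spleen controls are used.

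**Figure D1:**
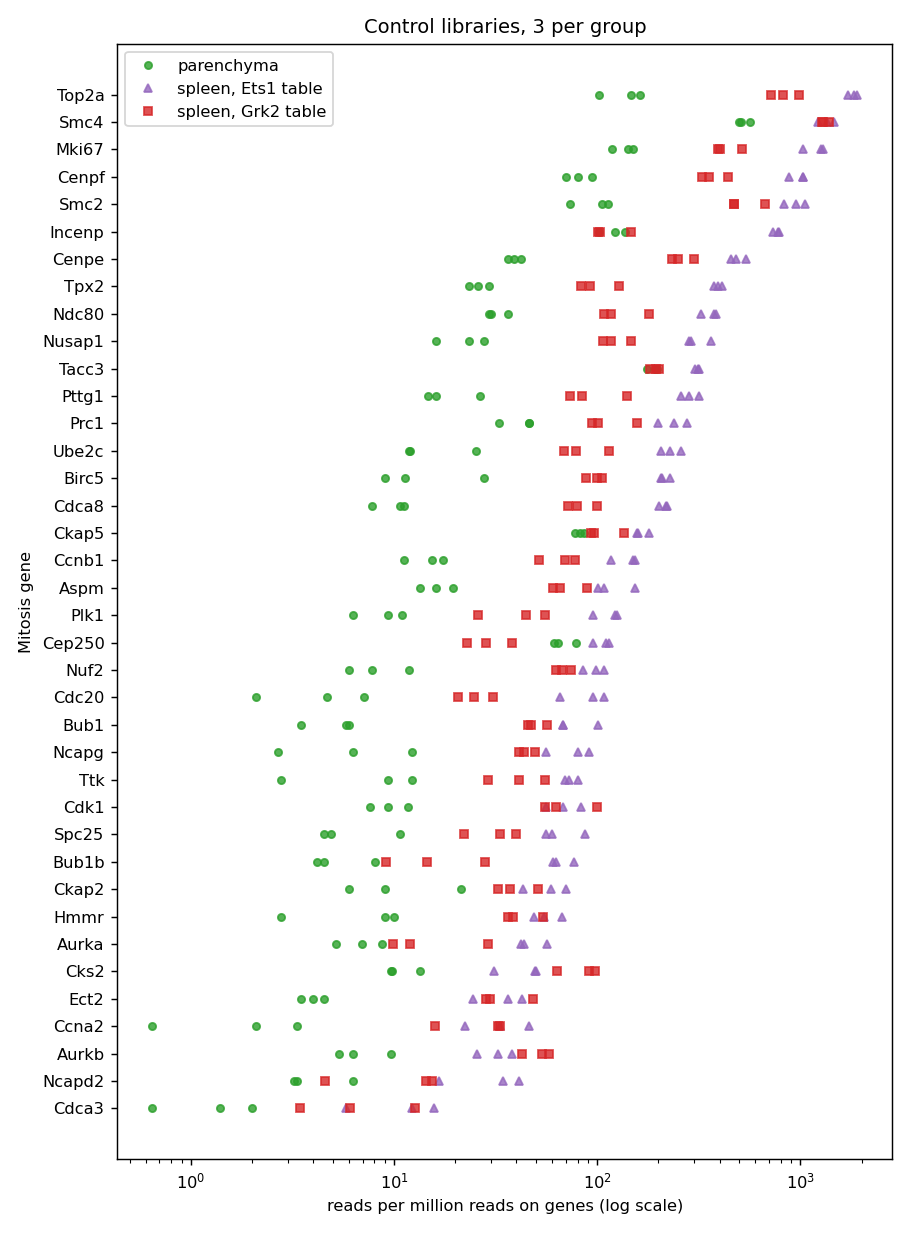
Level in RPM (x axis, log scale) of 38 mitosis genes (y axis) in the 9 control libraries, with 1 symbol per library and 3 libraries per group. The parenchyma libraries (circles) lie left of every spleen library (triangles and squares) for 34 of the 38 genes, and the spleen controls of the *Ets1* comparison lie right of those of the *Grk2* comparison for 29.

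The comparison of *Ets1*-KO with control cells in the parenchyma asked what the loss of *Ets1* does to T cells that have entered the target tissue. Most mitosis genes that could be tested were lower in *Ets1*-KO cells. Of the 22 genes whose mean over the 6 libraries reached 10 normalized counts, 12 fell and none rose (limma on log2(normalized count + 1) with the replicate number as a block, Benjamini-Hochberg adjusted p under 0.05), with log2 fold changes between −1.65 and −0.47. Of all 7002 genes tested, 5.23% were called, and 2.96% were called lower. The median log2 fold change was −0.79 over the 22 genes and −0.03 over all genes tested, and 21 of the 22 had a log2 fold change below 0, against 54.6% of all genes. In 14 of the 22 every KO library was below every control library, against 10.5% of all genes. *Ube2c* and *Ckap2* reached the minimum only through the control libraries and *Aurka* only through the KO libraries, and of the 19 genes with both group means at 10 or more, 11 fell. With 3 libraries a group, an exact permutation test of a single gene cannot give a p below 0.1. The limma fit of this comparison gave the trend of spread across genes full weight (infinite prior degrees of freedom). Its SEs and p-values therefore do not hold the replicate spread of each gene itself. Without that trend, the limma adjusted p was 0.203 for *Top2a* and 0.167 for *Mki67*. The summed normalized counts of the 39 genes were between 2325 and 2889 in control and between 1702 and 1974 in *Ets1*-KO libraries, of which *Smc4* alone made up between 27.7% and 41.1%.

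Among the kinetochore genes, all 3 that were tested fell. *Cenpe* (chromosome 2, 240396151 to 240454747, on Rnor_6.0 as for the genes that follow), the motor that carries chromosomes to the spindle equator, was at 54.2, 61.1 and 51.1 normalized counts in the 3 control libraries and at 12.1, 25.3 and 15.9 in the 3 *Ets1*-KO libraries, in the order of their replicate numbers (log2 fold change −1.65, SE 0.25, adjusted p = 4.75e-09). Every KO library was below every control library. *Cenpf* (chromosome 13, 108132498 to 108178609), a large protein of the outer kinetochore, went from 112, 136 and 99.3 to 57.6, 74.8 and 43.1 (log2 fold change −0.997, SE 0.16, adjusted p = 6.11e-08). *Ndc80*, a subunit of the complex that grips the microtubule, went from 41.1, 52.7 and 42.3 to 26.3, 26.3 and 14.7 (log2 fold change −1.02, SE 0.24, adjusted p = 0.00146). For both, no KO library reached the lowest control.

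Of the chromosomal passenger complex, which corrects faulty attachments, the scaffold *Incenp* fell and *Birc5* did not pass the test. *Incenp* was at 143, 198 and 173 in control and 132, 136 and 102 in *Ets1*-KO libraries (log2 fold change −0.47, SE 0.13, adjusted p = 0.00787). *Birc5*, the subunit also known as survivin, was at 15.9, 40.4 and 12.8 in control and 9.10, 13.1 and 9.07 in KO cells (log2 fold change −0.91, SE 0.35, adjusted p = 0.104), and its control libraries differed among themselves, replicate 2 standing above the others. The genes tested among the mitotic kinases and cyclins did not pass. *Ccnb1*, the cyclin B partner of *Cdk1*, was at 21.5, 25.4 and 15.7 in control and 11.1, 15.2 and 7.93 in KO libraries (log2 fold change −0.83, SE 0.34, adjusted p = 0.145). *Aurka*, a kinase of the spindle poles, was the only tested gene of the 22 with a fold change above 0, at 12.1, 7.52 and 9.83 in control and 11.1, 14.2 and 10.2 in KO cells (log2 fold change 0.25, SE 0.40, adjusted p = 0.82), and its groups overlapped. *Cks2*, a small protein that binds the cyclin-dependent kinase, had a log2 fold change of −0.59 (adjusted p = 0.431).

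Both tested genes of the group for anaphase and mitotic entry by ubiquitin fell. *Ube2c* (chromosome 3, 161236897 to 161241159), the ubiquitin-conjugating enzyme of the anaphase-promoting complex, was at 16.8, 36.7 and 16.7 in control and 7.08, 10.1 and 3.40 in *Ets1*-KO libraries (log2 fold change −1.64, SE 0.38, adjusted p = 0.000779), with 74 reads over the 3 controls and 20 over the 3 KO libraries. Its KO mean was 6.86, so that it reached the minimum of 10 through its control libraries. *Pttg1*, which encodes securin, the inhibitor of the protease that separates sister chromatids, was at 20.6, 38.6 and 22.6 in control and 9.10, 17.2 and 13.6 in KO cells (log2 fold change −0.97, SE 0.31, adjusted p = 0.0394). The groups did not overlap for either gene.

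Among the genes of chromosome condensation and chromatin, 3 of 4 tested fell. *Top2a* (chromosome 10, 86901006 to 86932154) was at 205, 237 and 143 in control and 66.7, 107 and 85.0 in *Ets1*-KO libraries (log2 fold change −1.16, SE 0.13, adjusted p = 7.64e-16). *Mki67* (chromosome 1, 207993894 to 208020454) was at 210.2, 206 and 166 in control and 94.0, 104 and 65.7 in KO cells (log2 fold change −1.15, SE 0.13, adjusted p = 1.01e-15). They were 2.24-fold and 2.22-fold lower, and the groups did not overlap. *Smc2* and *Smc4* form the core of condensin. *Smc2* was at 147, 164 and 103 in control and 78.9, 117 and 92.9 in KO cells (log2 fold change −0.50, SE 0.14, adjusted p = 0.00883), with overlapping groups but a lower value in the KO library of each of the 3 pairs. *Smc4* was at 695, 825 and 723 in control and 682, 796 and 699 in KO cells (log2 fold change −0.04, SE 0.08, adjusted p = 0.862), with overlapping groups.

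Of 7 spindle genes tested, 3 fell. *Tpx2*, which activates Aurora A and nucleates microtubules around chromosomes, was at 41.1, 33.9 and 36.4 in control and 14.2, 19.2 and 12.5 in *Ets1*-KO libraries (log2 fold change −1.24, SE 0.28, adjusted p = 0.000452). *Nusap1* (chromosome 3, 111422266 to 111452971), which bundles spindle microtubules, was at 32.7, 40.4 and 22.6 in control and 10.1, 13.1 and 17.0 in KO cells (log2 fold change −1.18, SE 0.30, adjusted p = 0.00321). No KO library overlapped the controls for either gene. *Cep250* was at 109, 93.1 and 86.5 in control and 84.9, 62.7 and 51.0 in KO cells (log2 fold change −0.56, SE 0.16, adjusted p = 0.0142). *Aspm*, a protein of the spindle poles, was at 18.7, 23.5 and 27.5 in control and 20.2, 10.1 and 17.0 in KO cells (log2 fold change −0.57, adjusted p = 0.342). *Tacc3* was at 276, 281 and 248 in control and 243, 201 and 229 in KO cells (log2 fold change −0.26, adjusted p = 0.148), and its KO libraries were all below its controls although it was not called. *Ckap5*, a microtubule polymerase that works with *Tacc3*, was at 120.5, 113 and 116 in control and 113, 95.0 and 97.5 in KO cells (log2 fold change −0.19, adjusted p = 0.516). *Ckap2*, which stabilizes spindle microtubules, had a log2 fold change of −0.74 (adjusted p = 0.312). *Prc1*, which bundles the central spindle before cytokinesis, was at 45.8, 66.8 and 64.9 in control and 55.6, 32.3 and 57.8 in KO cells (log2 fold change −0.30, adjusted p = 0.439), with overlapping groups.

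The other 17 genes were below the count minimum in the parenchyma and were not tested: *Nuf2*, *Spc25*, *Bub1*, *Bub1b*, *Ttk*, *Cdca8*, *Aurkb*, *Cdk1*, *Ccna2*, *Plk1*, *Cdc20*, *Cdca3*, *Ncapd2*, *Ncapg*, *Hmmr*, *Anln* and *Ect2*. Their control means lay between 0.328 and 14.0 normalized counts and their KO means between 0.674 and 6.57. *Cdk1* was at 13.1, 16.9 and 10.8 in control and 4.04, 5.05 and 3.40 in *Ets1*-KO libraries, from 43 and 12 reads. The passenger complex subunit *Cdca8* (borealin) was at 14.9, 11.3 and 15.7 in control and 7.08, 8.09 and 2.27 in KO cells. The spindle checkpoint kinase *Bub1* was at 8.41, 8.46 and 4.91 in control and 3.03, 0 and 3.40 in KO cells, and its relative *Bub1b* at 11.2, 6.58 and 5.90 in control and 0, 4.04 and 2.27 in KO cells. For these 4 genes every KO value was below every control value. This held for 10 of the 17 genes, and in the rest, such as *Spc25* and *Ttk*, the groups overlapped. Over the 17 genes, 451 reads were counted in the 3 control and 150 in the 3 KO libraries, and 16 of the 17, all except *Anln*, had the lower mean in KO cells. No such counts were made over all genes below the minimum.

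Without replicate 2, 6 of the 22 genes were called and with DESeq2 4 (*Cenpe*, *Cenpf*, *Top2a* and *Mki67*), while *Cenpe*, *Cenpf*, *Top2a*, *Mki67* and *Tpx2* were called with each replicate left out in turn. With limma without a variance trend 0 were called (15 at an unadjusted p under 0.05), and with edgeR 12. Of all 7002 genes, limma without the trend called 3, and 893 had an unadjusted p under 0.05. Summed T cell markers of the parenchyma lay between 4155 and 4365 in *Ets1*-KO and between 3879 and 4140 in control libraries, all KO libraries above all controls. CD8 T cell markers, which were reads of *Cd8a* since *Cd8b* was at 0, were also higher in every KO library (between 5.67 and 10.1, against between 0 and 3.74). Myeloid markers lay between 47.5 and 67.7 in KO and between 29.2 and 54.1 in control libraries and overlapped, and the part of these differences in the values above was not tested.

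**Figure D2:**
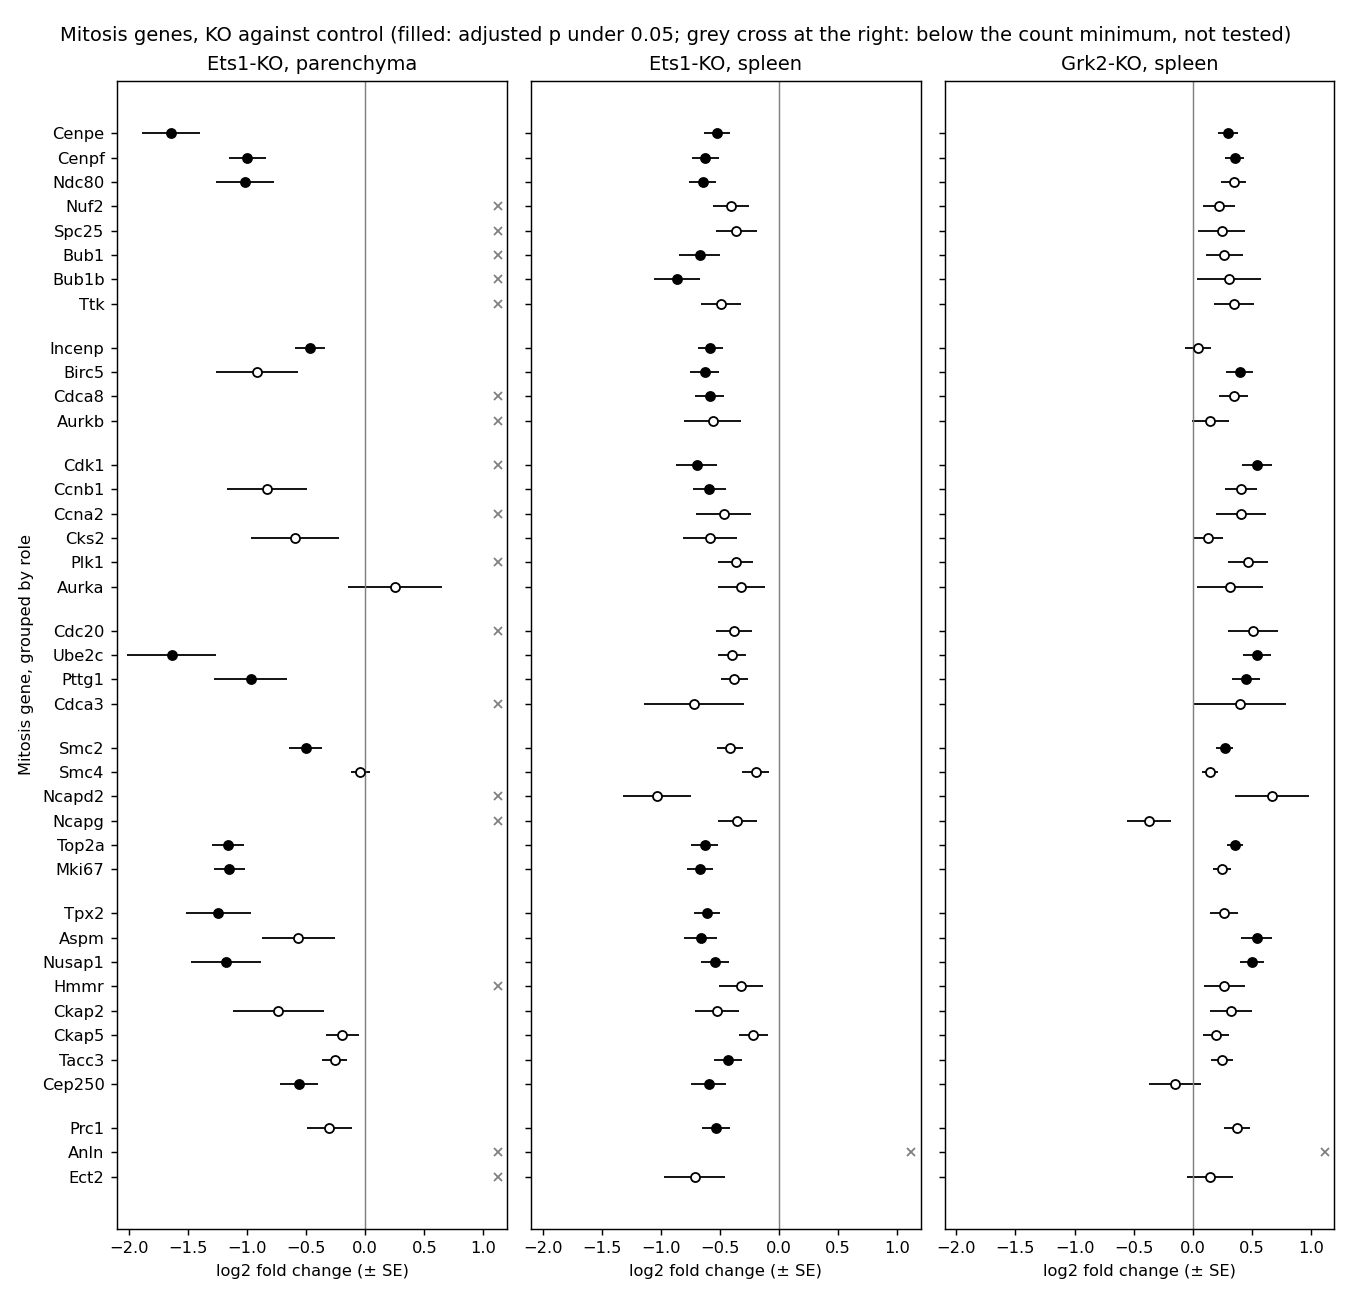
Log2 fold change of KO against control (x axis, bars are 1 SE) for the 39 mitosis genes (y axis, grouped by role) in the 3 comparisons of 3 against 3 libraries. Filled points passed the test, 12 in the parenchyma and 18 in the spleen to the left of 0 with *Ets1*-KO and 10 to the right of 0 with *Grk2*-KO, and crosses mark genes below the count minimum.

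In the spleen, where the cells were sampled in a lymphoid organ, the same comparison had more reads per mitosis gene, and 38 of the 39 genes passed the count minimum. Of the 38, 18 fell in *Ets1*-KO cells and none rose, with log2 fold changes between −0.86 and −0.43. All 38 had a log2 fold change below 0, with a median of −0.55, against 0.00 over all 6979 genes tested. Of all genes, 2.22% were called and 1.2% were called lower. In 27 of the 38 every KO library was below every control library, against 8.88% of all genes. Summed over the 39 genes, controls held between 14117 and 16685 and *Ets1*-KO libraries between 10465 and 11743 normalized counts.

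The kinetochore and checkpoint genes fell in 5 of 8 cases. *Cenpe* was at 713, 588 and 675 normalized counts in control and 439.6, 427 and 509 in *Ets1*-KO libraries (log2 fold change −0.52, SE 0.11, adjusted p = 0.0115). *Cenpf* was at 1369.5, 1139 and 1453 in control and 798, 871 and 890.5 in KO cells (log2 fold change −0.62, SE 0.11, adjusted p = 0.00328). *Ndc80* was at 499, 421 and 541 in control and 290.3, 297 and 343 in KO cells (log2 fold change −0.64, SE 0.11, adjusted p = 0.00328). In each of these genes the KO libraries lay in a narrow band beneath the controls. The checkpoint kinases *Bub1* and *Bub1b*, too low to test in the parenchyma, were among the genes that fell. *Bub1* was at 133, 87.1 and 95.6 in control and 68.5, 59.5 and 66.2 in KO cells (log2 fold change −0.67, SE 0.17, adjusted p = 0.034), and *Bub1b*, at 83.1, 78.5 and 108 in control and 62.3, 34.7 and 52.5 in KO cells, had the largest fall of the called genes (log2 fold change −0.86, SE 0.19, adjusted p = 0.0155). *Nuf2* and *Spc25*, which are partners of *Ndc80*, and the checkpoint kinase *Ttk* had log2 fold changes of −0.41, −0.36 and −0.49 and did not pass.

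Of the chromosomal passenger complex, 3 of 4 genes fell. *Incenp* was at 1039, 1000.4 and 1034 in control and 661, 702 and 691 in *Ets1*-KO libraries (log2 fold change −0.58, SE 0.11, adjusted p = 0.0039). *Birc5* was at 278, 266 and 321 in control and 188, 163 and 207 in KO cells (log2 fold change −0.63, SE 0.12, adjusted p = 0.00644). *Cdca8* was at 288, 286 and 282 in control and 201, 179.9 and 189 in KO cells (log2 fold change −0.58, SE 0.12, adjusted p = 0.0097). The controls of *Incenp* and *Cdca8* lay close together, and no KO library came near them. The kinase of the complex, *Aurkb*, had a log2 fold change of −0.56 from fewer counts (adjusted p = 0.296).

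The pair that starts mitosis fell together. *Cdk1* was at 89.7, 108 and 78.3 in control and 59.6, 58.3 and 50.0 in *Ets1*-KO libraries (log2 fold change −0.70, SE 0.18, adjusted p = 0.0339). *Ccnb1* was at 155, 194 and 215 in control and 121, 117 and 133 in KO cells (log2 fold change −0.59, SE 0.14, adjusted p = 0.0232). The groups did not overlap for either. *Aurka* was at 58.0, 73.1 and 59.5 in control and 56.1, 49.0 and 46.8 in KO cells (log2 fold change −0.32, SE 0.20, adjusted p = 0.494). *Ccna2*, *Cks2* and the Polo kinase *Plk1* had log2 fold changes of −0.47, −0.58 and −0.37 and were not called. The 4 genes of the group for anaphase and mitotic entry by ubiquitin did not pass (3 had an unadjusted p under 0.05). *Ube2c* was at 341, 265 and 319.7 in control and 240.3, 212 and 247 in KO cells (log2 fold change −0.40, SE 0.12, adjusted p = 0.0827), and *Pttg1* at 420.1, 365 and 362 in control and 360.2, 260.5 and 269 in KO cells (log2 fold change −0.38, SE 0.12, adjusted p = 0.0934). Both had every KO library below every control. *Cdc20* and *Cdca3*, which promotes entry into mitosis, had log2 fold changes of −0.38 and −0.72.

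*Top2a* and *Mki67* fell among the 6 genes of condensation and chromatin. *Top2a* was at 2439, 2203 and 2676 in control and 1473, 1477 and 1788 in *Ets1*-KO libraries (log2 fold change −0.63, SE 0.11, adjusted p = 0.00328), a 1.55-fold lower level. *Mki67* was at 1669, 1325 and 1819 in control and 949.7, 878 and 1195 in KO cells (log2 fold change −0.67, SE 0.11, adjusted p = 0.00208), 1.59-fold lower. The condensin genes did not pass. *Smc2* was at 1397, 1075 and 1341 in control and 949.7, 945 and 948 in KO cells (log2 fold change −0.41, SE 0.11, adjusted p = 0.0522), with KO libraries close together and beneath all controls. *Smc4* was at 1941, 1579 and 1907 in control and 1550.3, 1602 and 1557 in KO cells (log2 fold change −0.20, SE 0.11, adjusted p = 0.456), with overlapping groups, as in the parenchyma. The condensin subunits *Ncapd2* and *Ncapg* had log2 fold changes of −1.03 and −0.35 (adjusted p = 0.0594 and 0.332).

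On the spindle, 5 of 8 genes fell. *Tpx2* was at 545, 508 and 529.6 in control and 352, 340.5 and 344 in *Ets1*-KO libraries (log2 fold change −0.61, SE 0.11, adjusted p = 0.00358). *Aspm* was at 135, 139.8 and 215 in control and 88.3, 90.5 and 126 in KO cells (log2 fold change −0.66, SE 0.14, adjusted p = 0.0118). *Nusap1* was at 481, 367 and 406 in control and 283, 270.4 and 303 in KO cells (log2 fold change −0.54, SE 0.12, adjusted p = 0.0141). Every KO library of these 3 genes was below every control, and *Aspm* was higher in replicate 3 than in the other replicates in both groups. *Tacc3* was at 415, 393 and 443 in control and 308, 264 and 361 in KO cells (log2 fold change −0.43, SE 0.12, adjusted p = 0.0483), and *Cep250* at 127, 147 and 155 in control and 80.8, 91.2 and 113 in KO cells (log2 fold change −0.59, SE 0.15, adjusted p = 0.0313). *Ckap5* was at 208, 204 and 252 in control and 181, 183 and 205 in KO cells (log2 fold change −0.22, SE 0.13, adjusted p = 0.459) and was not called. *Hmmr*, a spindle assembly protein, and *Ckap2* had log2 fold changes of −0.32 and −0.53. Of the cytokinesis genes, *Prc1* fell from 365, 257 and 337 to 230.1, 184 and 246 (log2 fold change −0.53, SE 0.12, adjusted p = 0.0169). *Ect2*, which is needed for cytokinesis, had a log2 fold change of −0.71 (adjusted p = 0.181), and *Anln*, an actin-binding protein of the cleavage furrow, was below the minimum with 8 reads in control and 10 in KO libraries.

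These calls depended on replicate 1, without which none of the 38 genes was called (21 at an unadjusted p under 0.05, and 3 genes of all tested). All 38 then had a log2 fold change below 0, with a median of −0.49. The 38 values come from the same libraries and are not independent observations. Without the replicate block 10 were called, with DESeq2 10 and with edgeR 20, and in eBayes without a variance trend none was called (27 at an unadjusted p under 0.05). That last setting called 0 of all 6979 genes, of which 785 had an unadjusted p under 0.05. The *Ets1*-KO libraries of the spleen were also deeper (1909862 to 2248258 reads) than the controls (898092 to 1213485), and with the KO libraries thinned to the depth of their controls 16 were called.

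**Figure D3:**
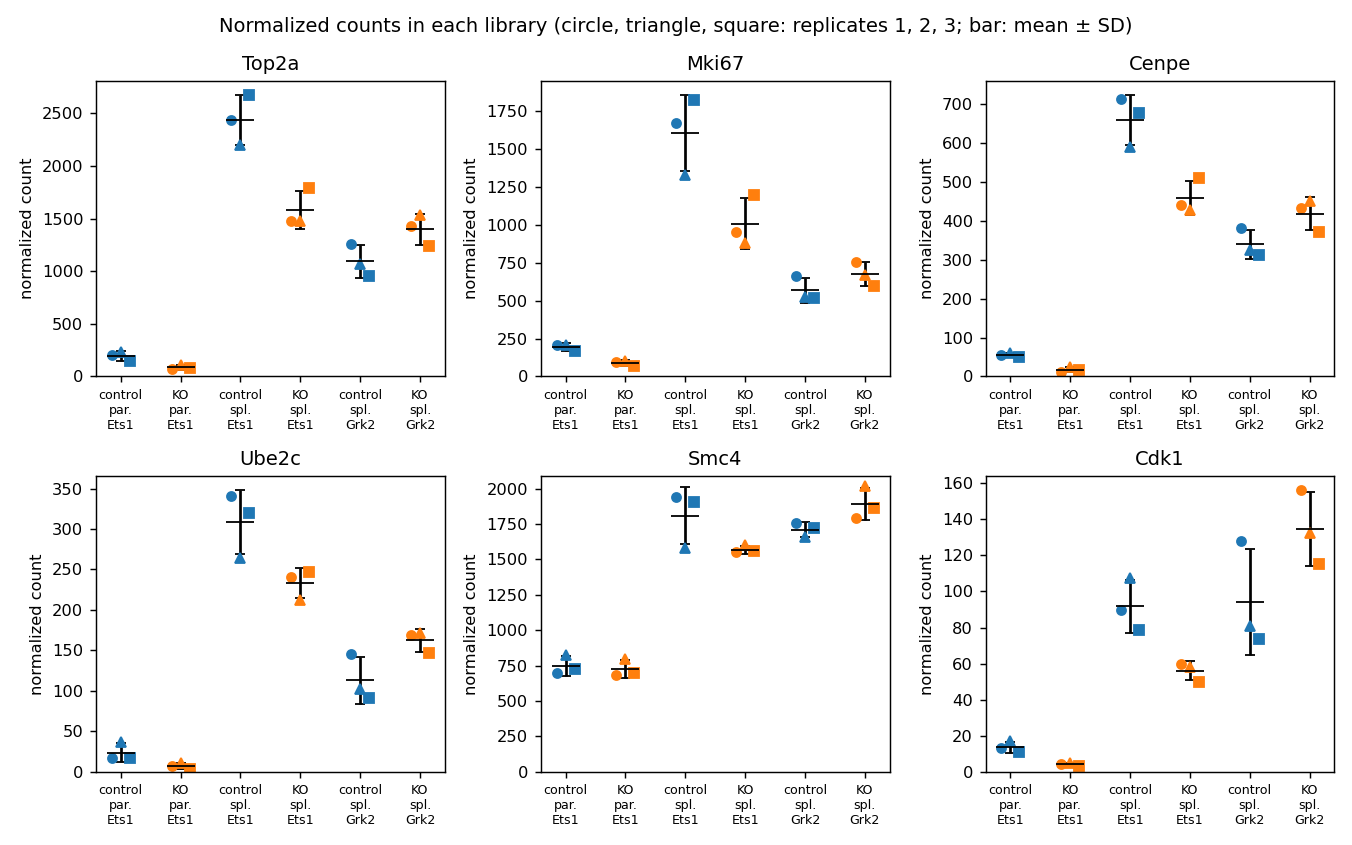
Normalized counts (y axes, from 0) of 6 mitosis genes in the 18 libraries, with circles, triangles and squares for replicates 1, 2 and 3 and bars for mean ± SD of 3 libraries (blue control, orange KO, par. parenchyma, spl. spleen). *Top2a*, *Mki67*, *Cenpe* and *Ube2c* lie lower in *Ets1*-KO than in control libraries of both tissues, while in the *Grk2* comparison *Ube2c* lies higher in every KO library.

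The *Ets1*-KO effect in the parenchyma was set against that in the spleen for the 22 genes tested in both, with limma on the log2 ratio of KO to control in each pair, 3 ratios a tissue. *Cenpe* and *Ube2c* differed between the tissues, and both fell more in the parenchyma, while the other 20 genes did not pass. Of all 6520 genes tested, 2.1% differed. For *Cenpe* the log2 fold changes were −1.65 in the parenchyma and −0.52 in the spleen, a difference of −1.12 (SE 0.20, adjusted p = 0.00108). For *Ube2c* they were −1.64 and −0.40, a difference of −1.24 (SE 0.27, adjusted p = 0.00841), where *Ube2c* entered the test through its parenchyma controls as described above. The fold change was the more negative one in the parenchyma in 14 of the 22 genes (63.6%), against 55% of all 6520. *Top2a* and *Mki67* came next in order of p, with differences of −0.53 (SE 0.16, adjusted p = 0.067) and −0.48 (SE 0.15, adjusted p = 0.0756). For *Incenp* the difference was 0.11 (SE 0.16) and for *Aurka* 0.57 (SE 0.39), and neither passed.

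Each of these 2 calls was lost in some settings. *Cenpe* had an adjusted p of 0.0666 without replicate 1, *Ube2c* of 0.094 without replicate 2 and 0.0964 without replicate 3, and at a minimum mean of 50 neither gene was tested. In eBayes without a variance trend both had an adjusted p of 0.204. Across the single comparisons, 9 genes were called in both tissues (*Cenpe*, *Cenpf*, *Ndc80*, *Incenp*, *Top2a*, *Mki67*, *Tpx2*, *Nusap1* and *Cep250*), 3 in the parenchyma alone (*Ube2c*, *Pttg1* and *Smc2*) and 9 in the spleen alone (*Bub1*, *Bub1b*, *Birc5*, *Cdca8*, *Cdk1*, *Ccnb1*, *Aspm*, *Tacc3* and *Prc1*), of which *Bub1*, *Bub1b*, *Cdca8* and *Cdk1* were too low to test in the parenchyma. Of all 6520 genes tested in both tissues, 0.276% (18 genes) were called lower in both, 2.79% in the parenchyma alone and 0.813% in the spleen alone, against 9, 3 and 5 of the 22 mitosis genes. Of the genes called in 1 tissue alone and tested in both, *Ube2c* passed the test of the difference and the others did not.

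**Figure D4:**
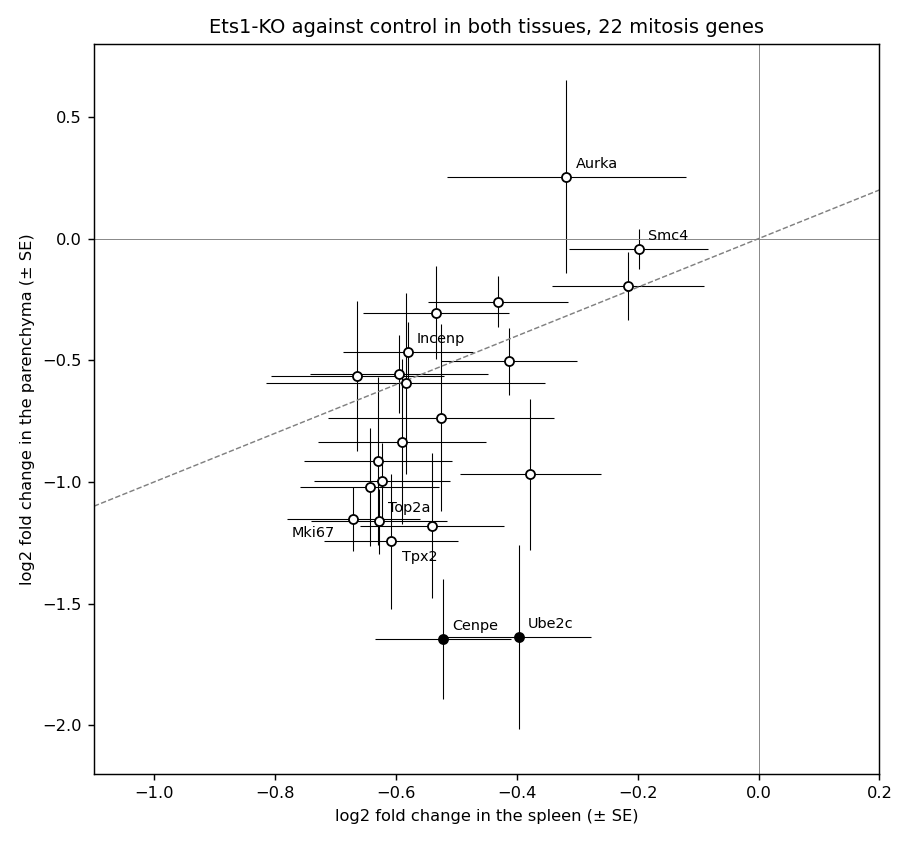
Log2 fold change of *Ets1*-KO against control in the parenchyma (y axis) and in the spleen (x axis) for the 22 mitosis genes tested in both, with bars of 1 SE and a dashed line at equal values. The filled points are *Cenpe* and *Ube2c*, which lie below the line and passed the test of the difference (log2 −1.12 and −1.24), and *Aurka* is the only point above 0 in the parenchyma.

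The comparison of *Grk2*-KO with control cells in the spleen addressed a second edited gene with control libraries of its own. Here the mitosis genes were higher in KO cells. Of 38 genes tested, 10 rose and none fell, with log2 fold changes between 0.27 and 0.55. Of all 6985 genes tested, 1.56% were called and 0.931% were called higher. The median log2 fold change was 0.32 over the 38 genes and 0.02 over all genes, and 36 of the 38 were above 0, the others being *Ncapg* (−0.37) and *Cep250* (−0.15). In 9 genes every KO library was above every control, against 7.59% of all genes. Summed over the 39 genes, the controls held between 6971 and 8854 and the *Grk2*-KO libraries between 8450 and 9943 normalized counts, and these ranges overlapped. In 36 of the 38 genes the control of replicate 1 was the highest of the controls, and how common this order was among all genes was not counted.

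*Cenpe* was at 382, 325 and 312 normalized counts in control and 431, 451 and 371 in *Grk2*-KO libraries (log2 fold change 0.30, SE 0.08, adjusted p = 0.0376), and *Cenpf* at 565, 458 and 434 in control and 584, 681 and 592 in KO cells (log2 fold change 0.36, SE 0.08, adjusted p = 0.00258). The KO libraries were above all controls for *Cenpf*, while for *Cenpe* replicate 3 of the KO cells lay below replicate 1 of the controls. *Ndc80* was at 231, 139.7 and 156 in control and 231, 247 and 181 in KO cells (log2 fold change 0.35, SE 0.11, adjusted p = 0.0701) and was not called. The checkpoint kinases *Bub1*, at 72.6, 58.8 and 62.7 in control and 82.1, 78.7 and 72.8 in KO cells, and *Bub1b*, at 35.8, 18.8 and 12.1 in control and 28.8, 34.2 and 16.4 in KO cells, had log2 fold changes of 0.27 and 0.31 and were not called. *Nuf2*, *Spc25* and *Ttk* had log2 fold changes of 0.22, 0.24 and 0.35.

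Of the passenger complex, *Birc5* rose from 134, 129 and 116 to 161, 188 and 153 (log2 fold change 0.40, SE 0.11, adjusted p = 0.0429), with no overlap of the groups. *Cdca8* was at 127, 93.1 and 106 in control and 142, 144 and 127 in KO cells (log2 fold change 0.35, SE 0.12, adjusted p = 0.167), also with no overlap, and did not pass the test. *Incenp*, which had fallen in both tissues with *Ets1*-KO, was at 188, 133 and 134 in control and 168, 161 and 136 in KO cells (log2 fold change 0.04, SE 0.11, adjusted p = 0.94). *Aurkb* had a log2 fold change of 0.15. *Cdk1* rose from 128, 80.9 and 73.9 to 156, 133 and 116 (log2 fold change 0.54, SE 0.13, adjusted p = 0.00528), and each KO library was above the control of its own number although the groups overlapped. *Ccnb1*, at 99.7, 89.8 and 68.8 in control and 121, 139 and 87.3 in KO cells (log2 fold change 0.41, SE 0.13, adjusted p = 0.107), and *Aurka*, at 36.9, 15.5 and 13.2 in control and 21.8, 33.1 and 20.9 in KO cells (log2 fold change 0.32, SE 0.28, adjusted p = 0.762), were not called. *Ccna2*, *Cks2* and *Plk1* had log2 fold changes of 0.41, 0.13 and 0.47.

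Both *Ube2c* and *Pttg1*, which did not pass with *Ets1*-KO in the spleen, rose with *Grk2*-KO. *Ube2c* was at 145, 102 and 91.1 in control and 169, 172 and 146 in KO libraries (log2 fold change 0.55, SE 0.12, adjusted p = 0.00172), with every KO library above every control. *Pttg1* was at 179, 109 and 98.2 in control and 162, 161 and 189 in KO cells (log2 fold change 0.45, SE 0.12, adjusted p = 0.0211), but in replicate 1 the KO value was the lower one. *Cdc20* and *Cdca3* had log2 fold changes of 0.51 and 0.40 and were not called. *Top2a* was at 1259.5, 1067 and 955 in control and 1428, 1529 and 1239 in KO cells (log2 fold change 0.36, SE 0.07, adjusted p = 0.000222), higher in each pair, the lowest KO value lying just beneath the highest control. *Mki67* was at 660.1, 521 and 520.1 in control and 755, 668 and 596 in KO cells (log2 fold change 0.25, SE 0.08, adjusted p = 0.0671) and did not pass. *Smc2* rose from 854, 606 and 626 to 871, 846 and 774 (log2 fold change 0.27, SE 0.07, adjusted p = 0.0323), and *Smc4*, at 1756, 1656 and 1722 in control and 1795, 2020.3 and 1863 in KO cells (log2 fold change 0.14, SE 0.07, adjusted p = 0.419), was not called. *Ncapd2* had a log2 fold change of 0.67 at low counts (SE 0.31), and *Ncapg* was the only gene with every KO library below every control.

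On the spindle, *Aspm* rose from 114, 85.4 and 80.9 to 117, 153 and 136 (log2 fold change 0.54, SE 0.13, adjusted p = 0.00716) and *Nusap1* from 186, 151 and 142 to 246, 242 and 190.1 (log2 fold change 0.50, SE 0.10, adjusted p = 0.00076). Both had every KO library above every control. *Tpx2* was at 164, 119.7 and 110.3 in control and 146, 178 and 145 in KO cells (log2 fold change 0.26, SE 0.12, adjusted p = 0.378). *Tacc3* was at 256, 251 and 241 in control and 326, 320.0 and 248 in KO cells (log2 fold change 0.25), *Ckap5* at 172, 125 and 124 in control and 179, 148 and 153 in KO cells (log2 fold change 0.20), and *Cep250* at 48.8, 36.6 and 30.4 in control and 38.4, 26.9 and 38.2 in KO cells (log2 fold change −0.15). None of these 4 was called, and their groups overlapped. *Prc1* was at 201, 131 and 125 in control and 209.6, 233 and 148 in KO cells (log2 fold change 0.38, SE 0.11, adjusted p = 0.0507), just short of the threshold. *Hmmr*, *Ckap2* and *Ect2* had log2 fold changes of 0.27, 0.32 and 0.15, and *Anln* was below the minimum.

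The *Grk2* calls changed with several settings. The limma fit of this comparison had 141 prior degrees of freedom. Its SEs and p-values therefore also hold little of the replicate spread of each gene itself. Without the replicate block none of the 38 genes was called (18 at an unadjusted p under 0.05), without replicate 2 none (10 at an unadjusted p under 0.05, 7 genes then being below 0), without replicate 3 *Nusap1* and *Top2a*, and with DESeq2 *Top2a* alone, while edgeR called 6. In eBayes without a variance trend none was called (10 at an unadjusted p under 0.05), and of all 6985 genes 0 were called (571 at an unadjusted p under 0.05). Summed myeloid markers were between 1.82 and 5.24 in *Grk2*-KO and between 1.01 and 1.11 in control libraries, and their part in these values was not tested.

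Because the fold changes of both edits in the spleen had opposite signs, their difference was tested for each gene, a test chosen after seeing the data. The 2 comparisons share no control library. Of 38 genes, 21 differed between the edits, all lower with *Ets1*-KO than with *Grk2*-KO relative to their own controls, whereas 1.94% of all 6490 genes differed. The median difference was −0.87, and 37 of the 38 differences were below 0. For *Top2a* the log2 fold changes were −0.63 and 0.36 (difference −0.99, SE 0.13, adjusted p = 1.02e-05). For *Mki67* they were −0.67 and 0.25 (difference −0.92, SE 0.13, adjusted p = 3.34e-05), and for *Cdk1* −0.70 and 0.54 (difference −1.24, SE 0.22, adjusted p = 0.000691). A pattern of a lower KO value in all 3 *Ets1* pairs and a higher one in all 3 *Grk2* pairs was seen in 20 of the 38 genes, against 3.36% of all 6490. Called in each of the spleen comparisons, in opposite directions, were *Cenpe*, *Cenpf*, *Birc5*, *Cdk1*, *Top2a*, *Aspm* and *Nusap1*, 7 of the 10 genes (0.154% of 6490) with such a pair of calls. With replicate 2 left out, 4 genes differed between the edits (*Cenpf*, *Top2a*, *Mki67* and *Nusap1*), and with replicate 1 or replicate 3 left out, 13 each. In eBayes without a variance trend none did (32 at an unadjusted p under 0.05), and of all 6490 genes 0 did (749 at an unadjusted p under 0.05). The controls of both experiments differed in their own levels, as described above, and what that adds to the difference was not tested.

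Other genes of the cell cycle were read from lists chosen for their known roles, also with earlier results of these data known. The 12 mitotic kinesins, motors that build the spindle and move chromosomes, had 5 of 8 tested genes lower in the parenchyma (median log2 fold change −1.28), 5 of 12 lower in the spleen with *Ets1*-KO (median −0.54) and 1 of 12 higher with *Grk2*-KO (median 0.33). Of all genes tested, 2.96%, 1.2% and 0.931% were called in these directions in the 3 comparisons. Of the 8 kinesins of the parenchyma, 6 had a KO mean under 10 and were tested only through their controls, 4 of the 5 called genes among them. In the parenchyma the largest falls among them were those of *Kifc1*, from 19.9 ± 9.77 to 3.83 ± 0.371 (SD, n = 3; log2 fold change −2.02, SE 0.43, adjusted p = 0.000218), and *Kif15*, from 30.1 ± 3.90 to 9.60 ± 6.69 (SD, n = 3; log2 fold change −1.73, SE 0.33, adjusted p = 1.86e-05), both among those 6. A further 133 mitosis genes had 1 higher and 1 lower of 59 tested in the parenchyma (median −0.09), against 2.27% higher and 2.96% lower of all genes, a share near the background. *Knstrn*, a kinetochore protein, fell from 17.7 ± 4.46 to 6.43 ± 3.60 (SD, n = 3; log2 fold change −1.42, SE 0.40, adjusted p = 0.0128) and also reached the minimum through its controls, and *Ranbp1*, a partner of the Ran GTPase, was higher in KO cells, from 53.8 ± 12.3 to 82.8 ± 8.90 (SD, n = 3; log2 fold change 0.63, SE 0.17, adjusted p = 0.00872). In the spleen 10 of 102 of these genes were lower with *Ets1*-KO (median −0.36), against 1.2% of all genes, and 2 of 98 higher with *Grk2*-KO (median 0.14), against 0.931%. Of these 2 genes, 1 had a control mean under 10 and reached the minimum only through its KO libraries.

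DNA replication genes had 1 of 28 tested lower in the parenchyma (median −0.10), near the 2.96% of all genes, where the DNA ligase gene *Lig1* fell from 149 ± 21.2 to 89.3 ± 20.7 (SD, n = 3; log2 fold change −0.75, SE 0.14, adjusted p = 6.18e-06). In the spleen 10 of 50 were lower with *Ets1*-KO (median −0.41), against 1.2% of all genes, and with *Grk2*-KO limma called 0 of 52 (4 at an unadjusted p under 0.05, median 0.10). Of the regulators that drive or repress mitotic transcription, limma called 0 of 13 in the parenchyma and 0 of 15 with *Grk2*-KO (3 each at an unadjusted p under 0.05), and 2 of 16, *Rbl1* and *Mybl2*, were lower in the spleen with *Ets1*-KO (1.2% of all genes), with medians of −0.11, −0.15 and −0.05. The G1 cyclins and arrest genes had medians of 0.09, 0.16 and −0.02, with 2 of 10 called in the parenchyma (5.23% of all genes), 0 of 14 in the spleen with *Ets1*-KO (4 at an unadjusted p under 0.05) and 1 of 13, *Ccnd3*, higher with *Grk2*-KO (0.931% of all genes). In the parenchyma *Ccnd2*, a D-type cyclin of G1 phase, was higher in KO cells, from 87.2 ± 11.1 to 138 ± 8.58 (SD, n = 3; log2 fold change 0.66, SE 0.14, adjusted p = 0.000185), and *Btg1*, an antiproliferative gene, fell from 217 ± 18.7 to 148 ± 4.62 (SD, n = 3; log2 fold change −0.55, SE 0.12, adjusted p = 0.000212).

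**Figure D5:**
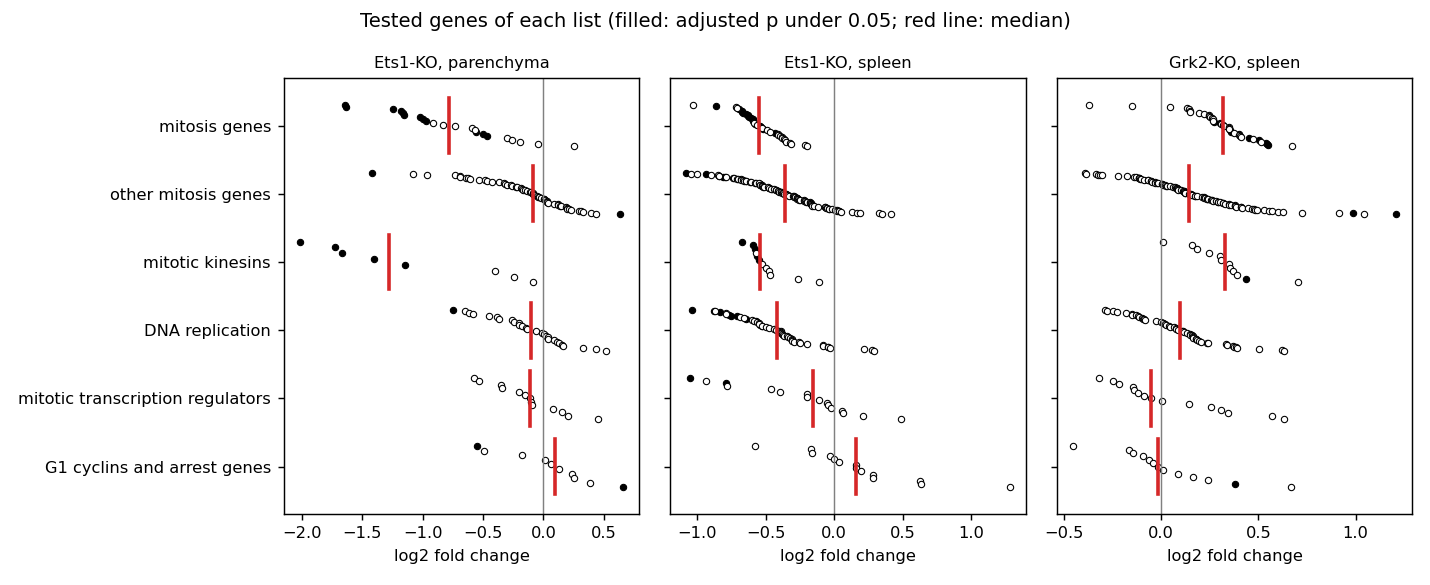
Log2 fold changes (x axis, a scale of its own in each panel) of the tested genes of 6 lists (y axis) in the 3 comparisons, with filled points for genes that passed the test and a red line at the median. The medians of the mitosis genes described here are −0.79, −0.55 and 0.32. Those of the G1 cyclins and arrest genes are 0.09, 0.16 and −0.02, with single genes well to either side of 0.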

How the data were processed

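RNA of rat T-MBP cells was sequenced from the 3′ ends of transcripts (Collibri 3′ mRNA kit, per the methods) in 18 libraries, 3 per group, whose conditions were taken from the sample labels. Per the methods and the submitters' processing notes, the authors aligned reads with STAR 2.7.2b to Rnor_6.0, counted them per gene with HTSeq-count 1.0.0 and divided them by DESeq2 size factors (poscounts). The deposited signal values are these normalized counts, in 3 tables that were scaled separately. All positive values (100%) were whole reads times 1 factor per library (tolerance 0.01), and genes without a name (388) stayed in the tests. Reads at 3′ ends do not show an edit elsewhere in a transcript. No pair of libraries of a group held the same counts. Deposited files of the authors' own comparisons hold fold changes, p-values and pathway results and were not used, and neither were 8 columns of human values.

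Genes whose mean over the 6 libraries of their table reached 10 normalized counts entered two-sided tests in R 4.3.3 with limma 3.58.1 on log2(value + 1), with lmFit, eBayes with a trend and the replicate number as a block, and adjusted over all genes of the table (Benjamini-Hochberg, 0.05). Fold changes on this scale understate those of low genes. That KO and control libraries of 1 number come from the same animal follows from the co-transfer and is not in the labels, and nothing states whether numbers are shared between tissues. The *Ets1* effect was compared between tissues, and after seeing the data the *Ets1* and *Grk2* effects in the spleen, with limma on log2 ratios of pairs. Levels across tables are reads per 1000000 reads on genes (RPM). The fits were tested on simulated data with known changes. Those data had the same spread setting for every gene and no replicate effect, so they do not check the SEs and p-values given here. The genes and lists were chosen with earlier results of these data known. All 40 genes are named, and values per library are given for the largest and smallest change of each role in the parenchyma, for genes called in the spleen and for those that differed between tissues. Of other lists, the 2 largest called changes in the parenchyma are named, and *Rbl1*, *Mybl2*, *Ccnd3*, *Cdc20* and *Cks2* were picked after their values were seen. Alternatives were no block, pseudocounts of 0.1 and 5, no filter, a minimum of 50, quantile and upper quartile scaling, no variance trend, edgeR 4.0.16, DESeq2 1.42.0 and each replicate left out, and, added after seeing the data, KO libraries thinned to control depth. For the sums of control levels, mitochondrially encoded genes were left out or TMM scaling was used.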

Additional observations from a re-analysis of the deposited data

Results flagged for a closer look

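The fall of *Ube2c* and of *Cenpe* in *Ets1*-KO cells differed between the 2 tissues by a test of the difference itself. For *Ube2c* the difference of the log2 fold changes, parenchyma minus spleen, was −1.24 (SE 0.27, limma adjusted p = 0.00841), and for *Cenpe* it was −1.12 (SE 0.20, adjusted p = 0.00108). Both were lower in the KO library of all 3 pairs in each tissue. In the parenchyma *Ube2c* rested on 74 control and 20 KO reads and *Cenpe* on 175 and 51, summed over 3 libraries each, and *Ube2c*, with a KO mean of 6.86, reached the count minimum of 10 there through its control libraries.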

How the results depend on the processing

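In the parenchyma 17 of the 39 genes were below the count minimum, with 1246779 to 1546206 reads a library against 898092 to 1314156 in the spleen controls, and the tests with 3 libraries a group borrowed their spread from the trend across genes. Same-numbered KO and control libraries deviated together with correlations between −0.003 and 0.159 in the parenchyma, between 0.077 and 0.175 in the spleen *Ets1* table and between 0.006 and 0.145 in the *Grk2* table, so the data did not show pairing in every pair. Without the replicate block 8 mitosis genes were called in the parenchyma (200 of all genes, against 366), 10 in the spleen with *Ets1*-KO (71 of all genes, against 155) and 0 with *Grk2*-KO (19 of all genes, against 109, and 18 mitosis genes at an unadjusted p under 0.05). A replicate block across tissues added *Top2a* to *Cenpe* and *Ube2c* in the difference between tissues (3 genes, adjusted p of *Top2a* 0.0392).

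At a minimum mean of 50, 6 mitosis genes were called in the parenchyma, 6 with *Grk2*-KO and 0 for the difference between tissues (3 at an unadjusted p under 0.05), where 10 of the 22 genes were tested. Without a variance trend limma called 0 mitosis genes in each of the 5 tests, with 15, 27 and 10 mitosis genes at an unadjusted p under 0.05 in the parenchyma, the spleen with *Ets1*-KO and the spleen with *Grk2*-KO, 5 for the difference between tissues and 32 for that between edits. Of all genes it called 3, 0, 0, 2 and 0 in the same order, with 893, 785, 571, 757 and 749 at an unadjusted p under 0.05. DESeq2 called 4, 10 and 1 in the 3 comparisons (86, 54 and 12 of all genes), and edgeR 12, 20 and 6 (354, 238 and 90). With *Grk2*-KO, quantile normalization and upper quartile scaling gave 6 each, and with a pseudocount of 5 the difference between tissues held for 1 gene, *Cenpe*. Of all genes called with *Grk2*-KO, 59.6% were higher, against 45.3% under quantile normalization and 45.7% under upper quartile scaling, and with *Ets1*-KO in the spleen 45.8% against 56.8% under upper quartile scaling. In the parenchyma 43.4% were higher, against 50.9% under upper quartile scaling, 52.7% under quantile normalization, 54.8% with edgeR and 68.6% with DESeq2.

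Leaving out 1 replicate gave between 6 and 9 mitosis genes in the parenchyma (lowest without replicate 2), between 0 and 21 in the spleen with *Ets1*-KO (lowest without replicate 1, where 3 of all genes were called), between 0 and 8 with *Grk2*-KO (lowest without replicate 2, where 9 of all genes were called), between 1 and 2 for the difference between tissues and between 4 and 13 for the difference between edits. The log2 ratio of control sums was −2.54 without mitochondrially encoded genes and between −2.81 and −2.62 with a replicate left out. Some genes that were not called changed sign. In the parenchyma *Aurka* ranged between −0.034 and 0.44 and *Prc1* between −0.59 and 0.056, and with *Grk2*-KO *Incenp* between −0.070 and 0.14 and *Aurka* between −0.049 and 0.84. For the difference between tissues *Incenp* ranged between −0.10 and 0.26, *Smc2* between −0.31 and 0.029, *Aspm* between −0.21 and 0.41, *Ckap5* between −0.020 and 0.076, *Cep250* between −0.087 and 0.20 and *Prc1* between −0.13 and 0.61. Without replicate 2 the differences of *Smc2* and *Cep250* were 0.01 and −0.0063. The causes were not tested.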

Other observations

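In control cells the other cell cycle lists also differed in level between the tissues, and by unequal amounts. The 12 mitotic kinesins summed to between 168 and 191 RPM in the parenchyma and to between 1184 and 1412 in the spleen controls of the *Ets1* comparison, with a median gene 9.27-fold higher in the spleen. The DNA replication genes had a median of 5.13-fold (52 genes) and the further mitosis genes of 3.66-fold (104 genes). The regulators of mitotic transcription, at 1.38-fold (16 genes), and the G1 cyclins and arrest genes, at 1.33-fold (13 genes), were nearer to the 1.07-fold of all genes. With the spleen controls of the *Grk2* comparison the medians were 4.99, 3.01, 2.00, 1.61 and 2.03-fold in the same order. These levels were set across tables that were scaled separately, and no test was run on them.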
